A study of Mus musculus with 4 samples.

Results

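The insulin-like growth factor (IGF) axis was examined in immortalised mouse mammary epithelial cell clones with and without Deaf-1, a DNA-binding transcription factor. Its members were chosen by gene symbol, with earlier results of these arrays known: the ligands Igf1 and Igf2, the receptors Igf1r and Igf2r, and the binding proteins Igfbp2, Igfbp3, Igfbp4, Igfbp5, Igfbp6 and Igfbp7. These 10 genes were read by 28 of the 45037 probe sets tested, a probe set being a group of array probes that is summarised to 1 value. The cells came from a Deaf-1-null female mouse of 8 weeks and carried the E6 and E7 proteins of human papilloma virus 16, so every array shares the deletion and the immortalising virus. Clones C1 and E1 were each split between a Deaf-1 retrovirus and its empty counterpart, called control here, and RNA was taken after 48 h of puromycin selection. This gave 4 Affymetrix mouse arrays, with 2 arrays per retrovirus and 1 array for each clone with each retrovirus. Each clone is a single clone from the same null background, and nothing in the sources used here describes repeat cultures, so p-values measure only the spread between these arrays.

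IGF1 and IGF2 are secreted ligands that drive growth and survival through the IGF1 receptor, a tyrosine kinase that acts through IRS and SHC adaptors on the PI3K-Akt and Ras-MAPK routes. The IGF2 receptor lacks a kinase and carries IGF2 to the lysosome. Binding proteins hold the ligands, prolong their life or keep them from the receptor, and proteases such as PAPP-A release the ligand by cutting them. In the mammary gland, stromal IGF1 supports ductal growth at puberty, and IGFBP5 is known for its rise as the gland involutes.

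Igfbp3 and Igfbp5 are the 2 genes that carry the main pattern, which is a difference between the clones. Neither passed the test for a change with Deaf-1. They are shown by the 250 bases before their RefSeq starts (build GRCm38.p6), because Deaf-1 is known to bind DNA through TTCG half-sites. The windows are chr11:7213924-7214173 and chr1:72874866-72875115, both on the minus strand, written 5′ to 3′ along the gene. Capitals mark TTCG or its reverse complement CGAA, the only motif searched, on both strands.
Igfbp3: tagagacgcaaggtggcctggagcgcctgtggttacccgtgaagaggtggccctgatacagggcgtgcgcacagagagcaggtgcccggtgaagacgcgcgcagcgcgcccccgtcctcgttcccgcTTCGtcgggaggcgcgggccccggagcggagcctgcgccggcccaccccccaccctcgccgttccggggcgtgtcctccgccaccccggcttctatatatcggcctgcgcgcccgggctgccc
Igfbp5: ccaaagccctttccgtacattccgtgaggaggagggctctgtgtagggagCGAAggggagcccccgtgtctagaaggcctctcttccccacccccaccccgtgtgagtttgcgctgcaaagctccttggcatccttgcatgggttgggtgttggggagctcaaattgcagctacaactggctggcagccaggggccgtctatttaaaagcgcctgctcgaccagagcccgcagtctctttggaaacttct
Each window held 1 match. In Igfbp3 it began 123 bases before the start, and in Igfbp5 it began 200 bases before it and lay on the opposite strand. A match of this length is a description and not a binding site. Of the 14 RefSeq promoters of the 10 genes, 8 (57.1%) held the motif, against 38.7% of 32851 promoters of the same length, and 4 of the 14 belong to Igf2 alone. The members' windows were also richer in G and C, with a median of 66.6% against 52.4% over all promoters. Igfbp2 and Igfbp5 are neighbours on chromosome 1, and the gap between their windows was 49.5 to 50.4 kb depending on the Igfbp2 start.

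Array medians ran from 3.77 to 3.87 (log2), and 49.2% to 50.8% of probe sets lay above the background level of 3.83, the 95th percentile of 44 olfactory receptor probe sets. Deaf1 itself, at 1448446_at, read 5.01 with the control and 6.73 with the Deaf-1 retrovirus in C1, and 4.91 and 6.25 in E1. Its log2 change was 1.53 (standard error 0.21, unadjusted p = 0.00123, adjusted p = 1.0, limma), and the position of its probes against the deleted part was not analysed here. The labelled cell type was checked against its markers. Of 11 luminal epithelial markers measured, 4 lay above background on every array (Epcam, Cldn3, Esr1 and Krt19) and Cdh1, Krt18, Cldn4 and Cldn7 lay below it on every array. Of 9 basal markers 5 lay above it throughout, with Krt14 and Krt17 below, and of 11 fibroblast and mesenchymal markers 10 did, with Col3a1 at 13.38 to 13.63. The cells are therefore called by their clone names. In such bulk RNA, fewer cells of a type and less RNA per cell cannot be told apart.

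Of the 28 probe sets, 24 lay above background on all arrays and 3 lay below it on all, which were 1415931_at of Igf2, 1446303_at of Igf1r and 1454159_a_at, the single probe set of Igfbp2. The remaining 1452108_at of Igf1r passed it on 1 array. Every member gene but Igfbp2 had at least 1 probe set above background on each array. Values are log2 RMA expression and are compared within a probe set, since probe sets differ in how brightly they hybridise.

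**Figure D1:**
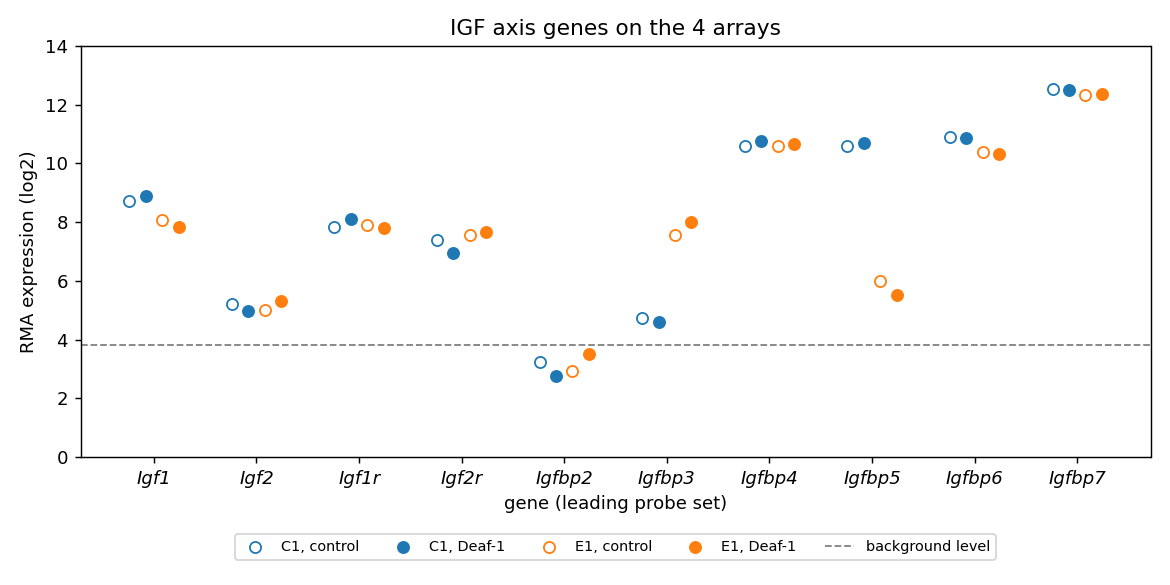
Log2 RMA expression (vertical axis) of the leading probe set of each of the 10 genes (horizontal axis) on the 4 arrays, 1 point per array. Blue marks clone C1, orange clone E1, open points the control and filled points the Deaf-1 retrovirus, and the dashed line is the background level of 3.83. Igfbp5 lies high in C1 and low in E1, Igfbp3 the other way round, and Igfbp2 is below the line on all arrays.

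The clones are compared first. Igfbp5 was the most divergent member, high in C1 and low in E1, and Igfbp3 ran the opposite way. Both IGFBP3, the main serum carrier of the ligands, and IGFBP5, which also binds extracellular matrix, are secreted binding proteins. The differences that follow are descriptions with no test, since the members were listed with them known and each clone is 1 clone.

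At 1452114_s_at, Igfbp5 read 10.60 with the control and 10.71 with the Deaf-1 retrovirus in C1, and 5.99 and 5.52 in E1. The E1 values lay far below both C1 values. E1 minus C1 was -4.61 between the control arrays and -5.19 between the Deaf-1 arrays, a mean of -4.90 ± 0.41 (SD, n = 2), or 29.9-fold higher in C1. The second probe set, 1422313_a_at, read 9.11 and 8.87 in C1 and 5.99 and 6.02 in E1. It gave the same order with a smaller step, -2.98 ± 0.19 (SD, n = 2), or 7.89-fold. Ordered by E1 minus C1 over 45037 probe sets, the Igfbp5 probe sets were ranks 5 and 16 from the lowest. Igfbp5 in E1 was still above the background level on both arrays.

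Igfbp3 at 1458268_s_at read 4.74 with the control and 4.60 with the Deaf-1 retrovirus in C1, and 7.57 and 8.0 in E1. At 1423062_at it read 4.05 and 4.47 in C1, and 7.29 and 7.50 in E1. The clones did not overlap at either probe set, and the C1 values lay within 1 log2 of the background level. E1 minus C1 was 3.12 ± 0.40 and 3.13 ± 0.14 (SD, n = 2), which is 8.69-fold and 8.78-fold higher in E1. These were ranks 24 and 23 from the highest of all probe sets. The pair of Igfbp3 probe sets therefore gave steps of one size, whereas those of Igfbp5 did not. The suffix _s_at marks probes that Affymetrix lists as shared by several transcripts, which applies to the leading probe set of both genes.

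A difference of at least 1 log2, in one direction with both retroviruses, was counted as past the line. Higher in E1 were 2 of 28 member probe sets, both of Igfbp3, and 0.864% of all probe sets. Lower in E1 were 2, both of Igfbp5, and 0.775% of all. The other 8 genes stayed within the line.

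Igf1, the ligand that acts on IGF1R, was lower in E1 at all 4 probe sets. At 1434413_at it read 8.72 and 8.88 in C1 (control, then Deaf-1) and 8.07 and 7.85 in E1. At 1437401_at the same order gave 8.73, 8.81, 7.90 and 7.42. At 1452014_a_at it gave 7.75, 7.99, 7.31 and 7.37, and at 1419519_at 7.59, 8.06, 6.88 and 6.88. In each case both E1 arrays lay below both C1 arrays. E1 minus C1 ran from -1.10 to -0.53, and at the leading probe set C1 was 1.79-fold higher. At 1437401_at, the nearest to the line, the step was -0.82 between control arrays and -1.38 between Deaf-1 arrays.

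Igf2, the fetal growth ligand, read 5.22 and 4.98 in C1 and 5.0 and 5.31 in E1 at 1448152_at. The clones overlapped there. At 1415931_at it stayed at 2.46 to 2.77, under background.

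Among the receptors, Igf1r at 1452982_at read 7.84 and 8.10 in C1 and 7.90 and 7.79 in E1. The arrays of the clones overlapped at all 5 probe sets of Igf1r. At 1426565_at it read 6.58 and 6.51 in C1 and 6.96 and 6.56 in E1, and at 1428967_at 5.06, 5.62, 5.61 and 5.05. The dim 1452108_at ran from 3.46 to 3.98 and 1446303_at from 3.22 to 3.74. Igf2r, which clears IGF2, read 7.39 and 6.96 in C1 and 7.55 and 7.68 in E1 at 1424112_at, and 6.95, 7.05, 7.37 and 7.31 at 1424111_at. Both probe sets of Igf2r were higher in E1, by 0.44 ± 0.40 and 0.34 ± 0.11 (SD, n = 2), so the first step was close to its own spread.

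Of the other binding proteins, Igfbp4, which holds IGF away from its receptor and is cut by PAPP-A, was the steadiest. At 1437405_a_at it read 10.60 and 10.75 in C1 and 10.60 and 10.66 in E1. Its other probe sets ran from 10.46 to 10.63 (1437406_x_at), 9.76 to 10.06 (1423756_s_at), 9.23 to 9.33 (1423757_x_at), 8.97 to 9.18 (1421992_a_at) and 7.44 to 7.56 (1421991_a_at). All 6 overlapped between clones, with E1 minus C1 from -0.12 to -0.012. Igfbp6, which prefers IGF2, read 10.89 and 10.88 in C1 and 10.38 and 10.33 in E1, a step of -0.53 ± 0.033 (SD, n = 2), or 1.44-fold higher in C1.

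Igfbp7, a secreted relative with low affinity for IGF, read 12.52 and 12.49 in C1 and 12.32 and 12.36 in E1 at 1423584_at. At 1423585_at it read 6.88 and 6.78, then 6.12 and 5.88, and at 1437804_at 6.20 and 6.36, then 5.67 and 5.99. All 3 were lower in E1, by -0.16 at the brightest and by -0.83 and -0.45 at the others. Igfbp2 read 3.24 and 2.76 in C1 and 2.94 and 3.52 in E1, all under background.

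Over all 28 probe sets, the clones' arrays did not overlap at 15. Of these, 4 were higher in E1, against 22.8% of all probe sets, and 11 were lower in E1, against 24.3% of all. The 11 lower ones belong to 5 genes, with 4 of them from Igf1 and 3 from Igfbp7, so they are not independent readings. The median of E1 minus C1 was -0.087 over the members and 0.0045 over all probe sets.

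**Figure D2:**
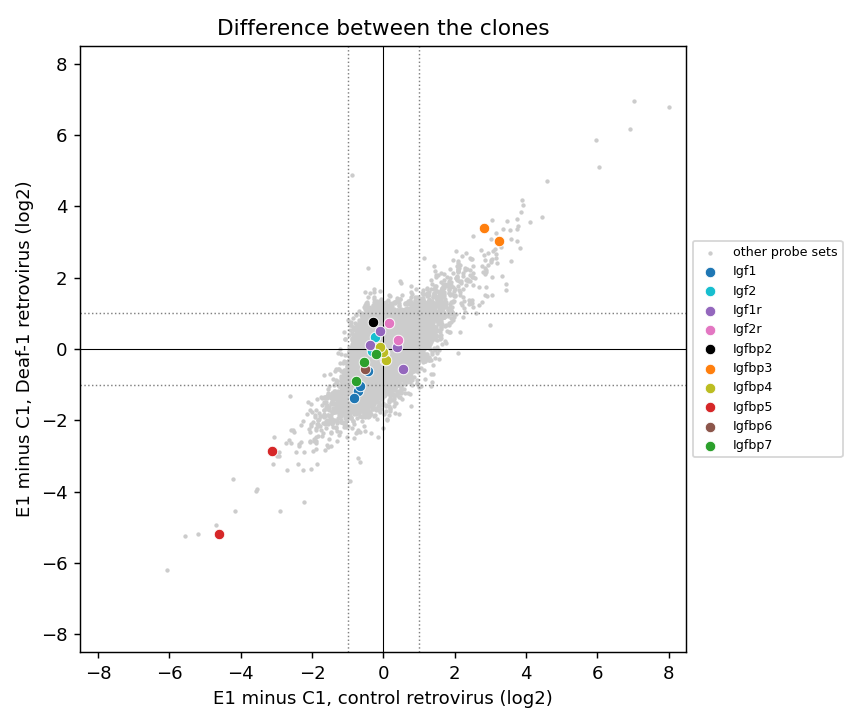
E1 minus C1 (log2) between the control arrays (horizontal axis) and between the Deaf-1 arrays (vertical axis), 1 point per probe set, with members coloured by gene and all others in grey. Dotted lines stand at 1 and -1. The pair of Igfbp3 points lies at upper right and the pair of Igfbp5 points at lower left, and 3 of the 4 Igf1 points lie past -1 on the vertical axis only.

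Markers of another cell type moved with the clones. Of 6 adipocyte markers measured, 3 were past the line, all higher in E1, against 1.22% of all genes higher and 1.03% lower. Fabp4, a fatty acid carrier, read 2.57 and 3.77 in C1 and 10.59 and 10.56 in E1. Pparg, the nuclear receptor of adipocyte differentiation, read 3.16 and 2.95 in C1 and 6.62 and 6.53 in E1. Both Fabp4 and Pparg were under background on the C1 arrays. Cebpa, its partner factor, read 5.95 and 6.21 in C1 and 7.15 and 7.43 in E1. The defining markers Adipoq and Cidec stayed under background on all arrays, and Lpl was bright in both clones at 12.42 to 12.74. The summed linear signal of the list was 6650 and 6950 in C1 and 7430 and 7280 in E1. Most of this sum came from Lpl, whose E1 minus C1 was -0.27. The mean log2 level of the list was 4.98 and 5.17 in C1 and 7.04 and 7.06 in E1. In the fibroblast and mesenchymal list only Lum, a matrix proteoglycan, passed the line. It read 6.52 and 6.94 in C1 and 4.26 and 3.57 in E1, the last under background. That list summed to 40100 and 40700 in C1 and 43600 and 45700 in E1. Its mean log2 level was 10.85 and 10.90 in C1 and 10.64 and 10.63 in E1. The sum, which the brightest genes weight most, was thus higher in E1 and the mean was lower. Krt7, a luminal keratin, was higher in E1, at 2.86 and 2.92 in C1, both under background, and 4.10 and 4.41 in E1. None of the basal, endothelial or leukocyte markers passed the line. The part of these markers in the Igfbp3 and Igfbp5 differences was not tested.

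For each of the 3 members with the widest range, the 3 genes whose centred values lay nearest over the 4 arrays were taken from 20306 single-symbol probe sets whose mean over the arrays was above background. Nearest to Igfbp5 were Zfpm2, a GATA cofactor, at a distance of 0.202 (log2), the matrix protein Abi3bp at 0.328 and Vit at 0.524. Zfpm2 read 7.20 and 7.49 in C1 and 2.54 and 2.28 in E1. All of these 3 genes were under background in E1, and so was Clca3a1, below, in C1, so their distances rest in part on values not above background. Nearest to Igfbp3 were Clca3a1 at 0.239, the fibrillar collagen chain Col11a1 at 0.281, and Igf2bp3, an RNA-binding protein that recognises Igf2 messages, at 0.315. Igf2bp3 at 1422610_s_at read 3.95 and 3.86 in C1 and 7.11 and 7.12 in E1. Nearest to Igf1 were Erlin1 at 0.0282, Cep20 at 0.0375 and Hace1 at 0.0452. With 4 arrays these are descriptions of the clone pattern.

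The pathway genes were read in 7 lists with the same line, with 57 of 68 genes measured and 49 of those above background on all arrays. At leading probe sets, Irs1, the adaptor that couples IGF1R to PI3K, was the only gene past the line. It read 5.97 and 6.31 in C1 and 8.12 and 7.83 in E1, higher in E1 by 1.84 ± 0.45 (SD, n = 2). Over all genes, 1.22% were past it as higher and 1.03% as lower in E1. Pappa, the protease of IGFBP4, was named after its values were seen. It read 4.71 and 5.04 in C1 and 6.13 and 6.0 in E1 at its brightest probe set, short of the line. The leading probe set of Igf2bp3 read 5.13 and 5.11, then 6.12 and 6.01, also short of it, but 3 of its 6 probe sets were past it, with E1 higher by 3.21 at 1422610_s_at, 3.01 at 1422611_s_at and 2.00 at 1453957_a_at. The last 2 were under background in C1. No other pathway gene had a probe set past the line. Foxo1, a factor restrained by Akt, read 6.21 and 6.03 in C1 and 7.33 and 6.87 in E1. Its step there was 1.12 between the control arrays and 0.84 between the Deaf-1 arrays, the latter below the line. In the same order, the steps were 0.99 and 1.12 at 1416982_at and 1.61 and 0.92 at 1416981_at. At the dim 1456529_at they were -0.41 and 0.57.

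**Figure D3:**
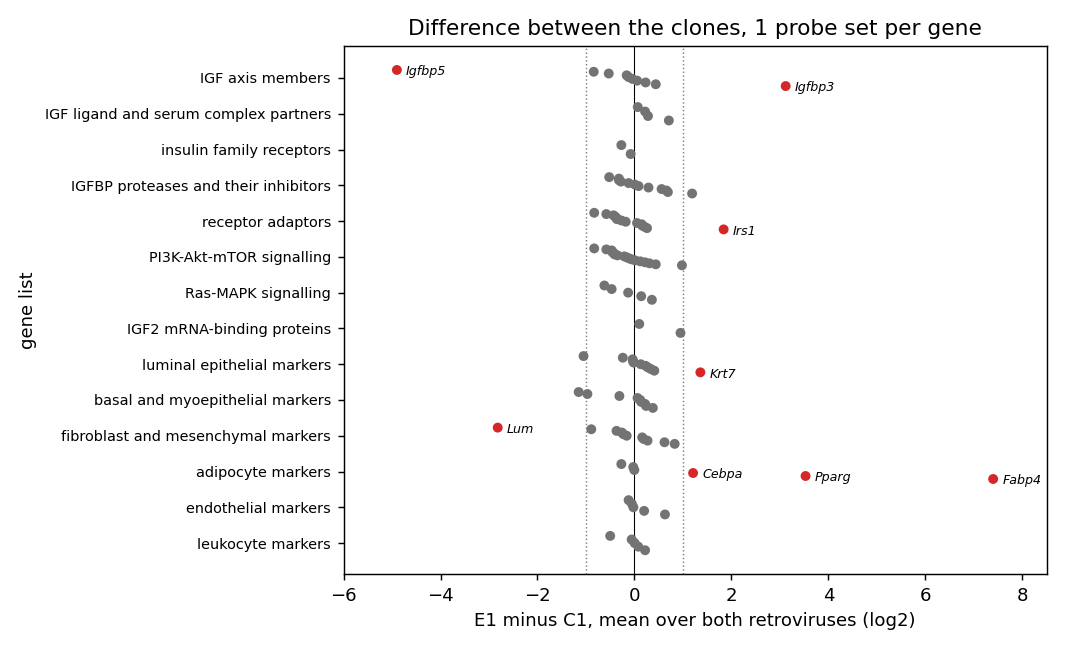
E1 minus C1 (log2, horizontal axis, mean over both retroviruses) for every measured gene of each list (rows), 1 point per gene at its leading probe set. Dotted lines stand at 1 and -1, and genes past the line with both retroviruses are red and named. Igfbp5 and Igfbp3 stand at opposite ends of the members, Irs1 is the only red pathway gene, and Fabp4 has the highest value.

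The question of the experiment was whether Deaf-1, put back into null cells, changed expression. No member of the IGF axis passed the test. At an unadjusted p under 0.01, 0 of 28 member probe sets were called, against 0.0111% of all probe sets. At an unadjusted p under 0.05 it was again 0, against 0.433%, and at an adjusted p under 0.05 it was 0, against 0.0%. The smallest member p was 0.205, at 1446303_at of Igf1r, a probe set under background (limma, two-sided).

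The arrays of one clone deviated together, so the pairing was also fitted with clone as a block. With the block, 0 members reached p under 0.01, against 0.0244% of all, and 0 reached p under 0.05, against 0.875%. The smallest p was 0.0988, at 1423062_at of Igfbp3, and every adjusted p was 1.0 in both fits (limma). At that probe set Igfbp3 was higher with Deaf-1 by 0.42 in C1 and by 0.22 in E1, a mean of 0.32 (95% interval -0.092 to 0.73 with the block). At the leading probe set of Igfbp3 the changes were -0.13 and 0.43, so its probe sets did not give one direction.

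The block mattered most for the members that differed between clones. The 95% interval of the change of Igfbp5 at 1452114_s_at was -6.28 to 5.91 without the block and -0.73 to 0.36 with it. For Igfbp3 at 1458268_s_at it was -3.75 to 4.05 without the block and -0.39 to 0.69 with it. For Igfbp4 at 1437405_a_at, alike in both clones, the intervals were -0.27 to 0.49 and -0.28 to 0.50. With the block, the intervals of the 10 leading probe sets lay between -0.76 and 0.85. Changes of 1 log2 with Deaf-1 thus fell outside every one of these block intervals, while changes inside them could not be told from 0. The outer bounds came from Igfbp2, whose values under background limit what its interval can show. Without the block, the intervals of Igf1 (-1.17 to 1.10 at 1434413_at), Igfbp3 and Igfbp5 did include changes of 1 log2.

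The difference with Deaf-1 had opposite signs in the clones at the leading probe set of 8 of 10 genes. The exceptions were Igfbp4, which read 0.16 higher in C1 and 0.067 higher in E1, and Igfbp6, at -0.0047 and -0.051. At leading probe sets, 6880 of 18193 genes in all differed in the same direction. Over all probe sets of the members, 10 of 28 differed in the same direction in both clones, against 39.3% of all probe sets, 17 differed in opposite directions, and 1419519_at of Igf1 read the same on both E1 arrays. The widest gaps between the clones were at 1428967_at of Igf1r, 0.56 in C1 and -0.57 in E1, and at Igfbp2, -0.48 in C1 and 0.58 in E1, the latter at values under background.

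Igf1 differed by 0.16 in C1 and by -0.23 in E1 at its leading probe set. Igf1r differed by 0.26 and -0.11, and at 1426565_at by -0.067 and -0.39. Igf2r differed by -0.43 and 0.14 at 1424112_at but by 0.10 and -0.061 at 1424111_at, so its probe sets disagreed in both clones. Igf2 differed by -0.24 and 0.31 at 1448152_at. Igfbp5 differed by 0.11 and -0.47, and at 1422313_a_at by -0.24 and 0.029. Igfbp7 differed by -0.026 and 0.037 at its brightest probe set, by -0.11 and -0.24 at 1423585_at and by 0.16 and 0.32 at 1437804_at. The 6 probe sets of Igfbp4 differed by -0.080 to 0.29 in the clones. For scale, the median absolute change over all probe sets was 0.15 in C1 and 0.17 in E1, and the 95th percentile was 0.51 and 0.60. The median change over both clones was 0.027 for the members and -0.0043 for all probe sets.

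**Figure D4:**
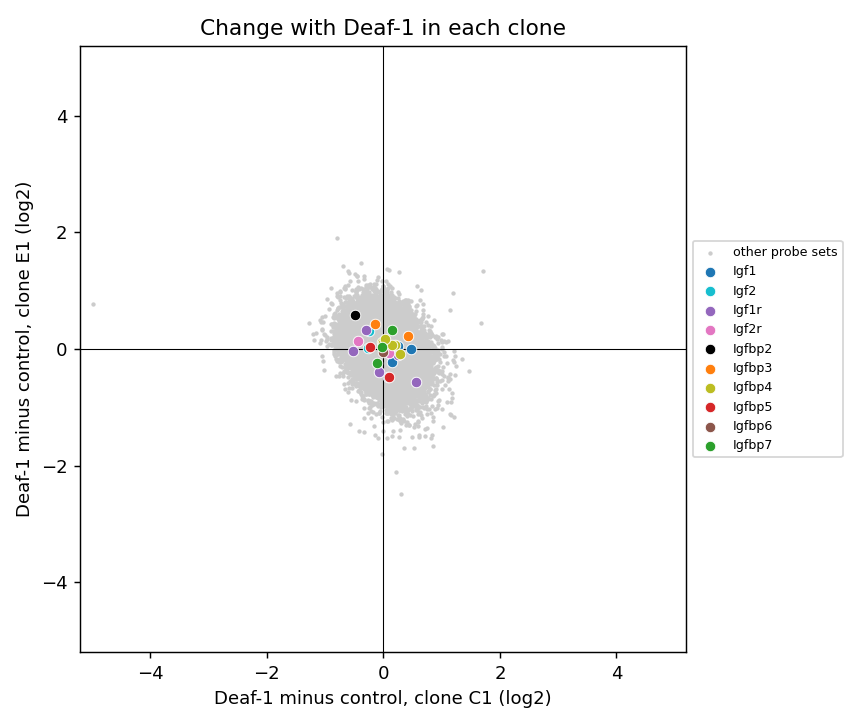
Change with Deaf-1 (log2, Deaf-1 minus control) in clone C1 (horizontal axis) and clone E1 (vertical axis), 1 point per probe set, with members coloured by gene and all others in grey. All members lie between -0.57 and 0.58 on both axes, inside the cloud of other probe sets, and 17 of 28 have opposite signs in the clones.

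The pathway lists were read from the same fits. At the leading probe set of the 57 measured genes, 0 reached p under 0.01 or under 0.05 in either fit, and 21 differed in the same direction in both clones, as did 6880 of 18193 genes in all. Over all 153 probe sets of these genes, 0 reached p under 0.01 in either fit. In limma, p under 0.05 was met by 1 (against 0.433% of all probe sets) in the plain fit, and by 3 (against 0.875% of all) once clone was a block. The first was 1447940_a_at of Braf, a kinase of the Ras-MAPK route, at 4.37 and 3.92 in C1 (control, then Deaf-1) and 4.48 and 3.99 in E1, a mean change of -0.46 (unadjusted p = 0.0282, or 0.029 with the block, limma). The others, called by limma with clone as a block, were 1455703_at of Akt2 (unadjusted p = 0.0371) and 1442586_at of Socs2 (unadjusted p = 0.0209). They were above background on 1 and 2 of the 4 arrays. Every adjusted p was 1.0 (limma). List medians of the log2 change were 0.074 for ligand and serum complex partners, -0.14 for insulin family receptors, 0.0023 for binding protein proteases, 0.040 for receptor adaptors, 0.0080 for PI3K-Akt-mTOR genes, -0.13 for Ras-MAPK genes and -0.088 for the Igf2 mRNA-binding proteins, against -0.0068 for all genes.

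The pathway genes with the highest absolute t that differed one way in both clones are given by value at their leading probe sets, where none passed the test. Ghr, the growth hormone receptor, differed by 0.17 in C1 and 0.035 in E1. Insr, the insulin receptor, differed by -0.17 and -0.32. Among proteases and inhibitors, Mmp2 differed by 0.042 and 0.053, Mmp7 by 0.0029 and 0.39, and Stc1, an inhibitor of PAPP-A, by -0.15 and -0.0046. Among adaptors, Shc1 differed by 0.062 and 0.28, Sos1, a Ras exchange factor, by -0.12 and -0.29, and the feedback inhibitor Socs3 by 0.11 and 0.077. Downstream, Tsc2, a brake on mTOR, differed by -0.36 and -0.0072, Foxo1 by -0.18 and -0.46, and Mtor by -0.079 and -0.073. In the Ras-MAPK list, Braf differed by -0.19 and -0.15, Nras by -0.13 and -0.17, and Map2k2 by -0.26 and -0.0032. Igf2bp1 differed by -0.0040 and -0.22, and Igf2bp3 by -0.019 and -0.11. At these leading probe sets no absolute change was above 0.46 in either clone. Other probe sets of the same genes gave larger or opposite values. Foxo1 differed by 0.16 in C1 and 0.29 in E1 at 1416982_at and by 0.60 and -0.10 at 1416981_at, so its probe sets did not give one direction. Ghr differed by 0.68 in C1 at 1451871_a_at, and Nras by -0.59 in E1 at 1454060_a_at.

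No leading probe set of the marker lists reached p under 0.05 in either fit (limma). For direction, 6880 of 18193 genes in all differed the same way in both clones. Of 11 luminal markers, 4 read higher with Deaf-1 in both clones, 0 read lower in both and 7 did neither. Those 4 were Krt18, Cldn7 and Cdh1, under background on all arrays, and Krt7, under it in C1. Of 5 leukocyte markers, 2 read higher in both and 3 did neither. Those 2, Cd68 and Ptprc, lay under background on all arrays. All 5 endothelial markers did neither. Of 9 basal markers, 5 read higher with Deaf-1 in both clones, 1 read lower in both (Krt17) and 3 did neither. Of those 5, Krt5 and Cdh3 were above background on 4 arrays, Mylk on 2, Oxtr on 1 and Krt14 on 0. Of 11 fibroblast and mesenchymal markers, 3 read higher in both (Col1a1, Col1a2 and Col3a1), 2 read lower in both (Vim and Dcn) and 6 had opposite signs. Of 6 adipocyte markers, Cebpa read higher in both clones, and 2, Pparg among them, read lower in both.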

How the data were processed

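RNA of clones C1 and E1 was hybridised to Affymetrix whole-genome mouse arrays. The authors deposited log2 expression values, 1 per probe set and array. RMA and limma are named in the submitters' processing notes, with no version. RMA corrects background and equalises arrays by quantiles, so a shift shared by most genes would be lost. Values ran from 1.75 to 13.63 and were used as deposited. The number of arrays, and not a read depth, limits the precision. Of 45101 probe sets, 64 controls were left out. Symbols came from the platform annotation, with 34945 probe sets having 1 symbol, 932 several and 9160 none, and only the first kind was named. The members and lists were chosen with earlier results of these data known.

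Arrays were grouped by retrovirus as labelled. Deaf-1 minus control was fitted with limma 3.58.1 (lmFit, eBayes) in R 4.3.3. Tests were two-sided, p-values were adjusted by Benjamini-Hochberg over 45037 probe sets, and calls used the study's threshold of an unadjusted p under 0.01, beside an adjusted p under 0.05. Clones were treated as replicates, as the study did, with 2 residual degrees of freedom and 2.56 prior ones. This fit did not return the study's own statistics. The paper lists a smaller p-value for Deaf1, and genes lower with Deaf-1 among those under the threshold. Here 5 probe sets were called, all higher with Deaf-1. Each clone gave 1 array with each retrovirus. Deviations from the group means correlated at 0.54 within clones, so clone as a block was the main alternative (1 and 3.21 degrees of freedom). The other alternatives were leaving out each array, a filter on dim probe sets, normalization, the prior and the mean of a gene's probe sets. The leading probe set of a gene has the highest mean. The fit was tested on simulated data.

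Every member was named at each probe set. From each other list, the text names up to 3 genes with the highest absolute t, same direction in both clones and mean above background, any with p under 0.01 in either fit, and up to 3 with the widest clone difference past the line. Promoter windows came from RefSeq, GRCm38.p6, for 10 of 10 members. Genome positions of probes were not used here.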

Additional observations from a re-analysis of the deposited data

Results flagged for a closer look

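For 8 of the 10 leading probe sets the change with Deaf-1 had one sign in clone C1 and the other in clone E1, with 1 array on each side, and the difference between clones was not tested. In C1 and then E1 the log2 changes were 0.16 and -0.23 for Igf1 (1434413_at), -0.24 and 0.31 for Igf2 (1448152_at), and 0.26 and -0.11 for Igf1r (1452982_at). They were -0.43 and 0.14 for Igf2r (1424112_at) and -0.48 and 0.58 for Igfbp2 (1454159_a_at), which is under background. They were -0.13 and 0.43 for Igfbp3 (1458268_s_at), 0.11 and -0.47 for Igfbp5 (1452114_s_at), and -0.026 and 0.037 for Igfbp7 (1423584_at). In all probe sets together, 39.3% differed in the same direction in both clones, and at leading probe sets 6880 of 18193 genes did. Opposite signs were thus common over the whole array.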

How the results depend on the processing

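No member probe set reached an unadjusted p under 0.01 in limma in any of the 11 alternatives run, including the replicate block and each array left out (0 in every one). The number of all probe sets called was 5, with 11 under the block by clone (replicate pairing), 2 among probe sets above background and 25 where the prior followed intensity. It was 6 with cyclic loess, centring on medians or a repeated quantile step, and 5 with a robust prior. Leaving out 1 array gave 2 to 47: Deaf-1 in C1 left out gave 47, Deaf-1 in E1 gave 15, control in C1 gave 3 and control in E1 gave 2. Among members, the sign of a change near 0 turned for Igf1 (-0.035 to 0.0098 with quantile normalization, 0.0023 with cyclic loess and 0.038 as the mean of its probe sets), Igf2 (0.035 to -0.044) and Igf1r (0.074 to -0.084), both as the mean of probe sets, Igfbp6 (-0.028 to 0.011 with quantile normalization and 0.0089 with cyclic loess) and Igfbp7 (0.0057 to -0.016 with centring). Without 1 array the values ran from -0.55 to 0.48 for Igf1, -0.13 to 0.20 for Igf2, -0.078 to 0.23 for Igf1r, -0.51 to 0.21 for Igf2r, -0.33 to 0.43 for Igfbp2, -1.55 to 1.85 for Igfbp3, 0.068 to 0.15 for Igfbp4, -2.78 to 2.41 for Igfbp5, -0.30 to 0.25 for Igfbp6 and -0.092 to 0.10 for Igfbp7. With 3 arrays the clones are unbalanced between the retroviruses, so these values carry the clone difference. The block changed no call among the members. Igfbp3 and Igfbp5 were the 2 genes past the clone line with each normalization and with the mean of probe sets, and the Igfbp5 step was -3.94 as that mean. Within the Deaf-1 arrays alone 3 genes were past it, the third being Igf1. Igfbp2 was not above background on any array, which limits what its values can show.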
